A study of Homo sapiens with 6 samples.

Results

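The response of NB4 cells to all-trans retinoic acid (ATRA) was measured by RNA-seq in 6 libraries, which are all 6 libraries of the series. NB4 is a cell line from an acute promyelocytic leukemia. Its cells are blocked at the promyelocyte stage by PML-RARA, a fusion of the retinoic acid receptor alpha with PML that holds retinoid target genes in a repressed state. The cells carried 1 of 3 constructs, a control (CTRL) or a short hairpin against SMARCD2 (shRNA1 or shRNA2), and each construct was given either 1 µM ATRA or the solvent DMSO. The groups were thus control in DMSO, control in ATRA (1 library each), knockdown in DMSO and knockdown in ATRA (2 libraries each). The labels call the DMSO cells undifferentiated and the ATRA cells differentiated. No label gives the duration of treatment, or says whether libraries came from separate cultures or from clones, so p-values here reflect only how these libraries vary and that variation may be technical. The 3 ATRA libraries were compared with the 3 DMSO libraries with knockdown state as a covariate, over the 12301 genes that both deposited tables list.

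As background, ATRA at pharmacological doses releases corepressors from PML-RARA, leads to its breakdown and lets promyelocytes resume maturation toward granulocytes. A maturing granulocyte makes its granule proteins in waves, assembles the NADPH oxidase that produces superoxide, gains receptors for opsonised particles and chemoattractants, remodels its actin skeleton and nucleus, and leaves the cell cycle. In NB4 cells ATRA is also known to induce interferon-stimulated genes.

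SMARCD2, a subunit of the BAF chromatin remodelling complex and the target of the hairpins, stood in the order CTRL, shRNA1 and shRNA2 at 95.5, 39.0 and 25.7 CPM in DMSO and 122, 64.2 and 35.6 CPM in ATRA. Within each treatment both hairpin libraries were below the control, as their labels say. Between ATRA and DMSO the gene did not pass the test (log2 fold change 0.53 ± 0.22, adjusted p = 0.0537) and the groups overlapped. In each construct the ATRA library was the higher one, and with construct as a replicate block the gene passed the test (0.51, adjusted p = 0.000294). Library totals ran from 29291209 to 58099733 counts per library, with the 2 count columns of a library added together. In each ATRA library the 10 most abundant genes held between 4.66% and 4.79% of counts, and in each DMSO library between 5.46% and 5.67%. Markers of promyelocytes and neutrophils were all listed in at least 1 table (10 of 10), with a summed level of 10519 to 10751 CPM (counts scaled to a common library total) in DMSO and 5787 to 7289 in ATRA, most of it from MPO. Of the 11 T and NK cell markers 7 were listed (112 to 120.3 CPM in DMSO, 269 to 310.2 in ATRA; TRAC, CD2, CD8B and KLRD1 in neither table), of the 7 B cell markers 5 (18.4 to 20.5 and 37.3 to 38.1 CPM; MS4A1 and VPREB1 in neither), and of the 10 erythroid and megakaryocyte markers 3 (27.1 to 31.2 and 18.1 to 27.3 CPM; HBA1, HBA2, HBB, PF4, PPBP and GP9 among those in neither). Of the 7 fibroblast and endothelial markers 3 were listed (0.299 to 0.615 and 4.57 to 6.09 CPM; COL1A2, COL3A1, DCN and KDR in neither), and of the 5 epithelial markers 3 (49.0 to 54.6 and 36.9 to 46.4 CPM; KRT19 and CDH1 in neither). Their part in the results was not tested. Levels are TMM-scaled CPM, which are not divided by gene length. They are compared here mainly between libraries, and where genes are ordered by CPM the order also depends on gene length. In bulk RNA, more cells with a transcript and more transcript per cell cannot be told apart.

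The response was broad and mostly of moderate size. In edgeR's quasi-likelihood test, 4450 genes were higher in ATRA (36.2% of those tested) and 4650 were lower (37.8%) at an adjusted p under 0.05. At least 2-fold changes were fewer, with 1469 genes higher (11.9%) and 1142 lower (9.28%). Of these 2611 genes, 2608 moved in the same direction in all 3 constructs, and in 2600 the 3 ATRA libraries did not overlap the 3 DMSO libraries. The genes were chosen on these same 6 libraries, so both counts follow largely from that choice and are no separate support. Among the called genes below 2-fold, falls outnumbered rises, with 1715 higher and 1946 lower under 1.41-fold and 1266 higher and 1562 lower between 1.41-fold and 2-fold. From 2-fold upward rises were the more numerous in each class, with 899 higher and 820 lower between 2-fold and 4-fold, 279 and 194 between 4-fold and 8-fold, 148 and 84 between 8-fold and 16-fold, 111 and 41 between 16-fold and 64-fold, and 32 and 3 at 64-fold or more. For 1493 genes (12.1%) the whole 95% interval of the log2 fold change lay within 0.25 of 0. The split depends on scaling. With total counts in place of TMM the median log2 fold change of all genes moved from -0.013 to -0.14, 3637 genes were higher and 5722 lower, and the share of calls that were higher went from 48.9% to 38.9%. At 2-fold or more the balance then turned, with 1268 genes higher and 1420 lower, and the higher share of these calls went from 56.3% to 47.2%. All changes below are relative to the TMM scale.

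**Figure D1:**
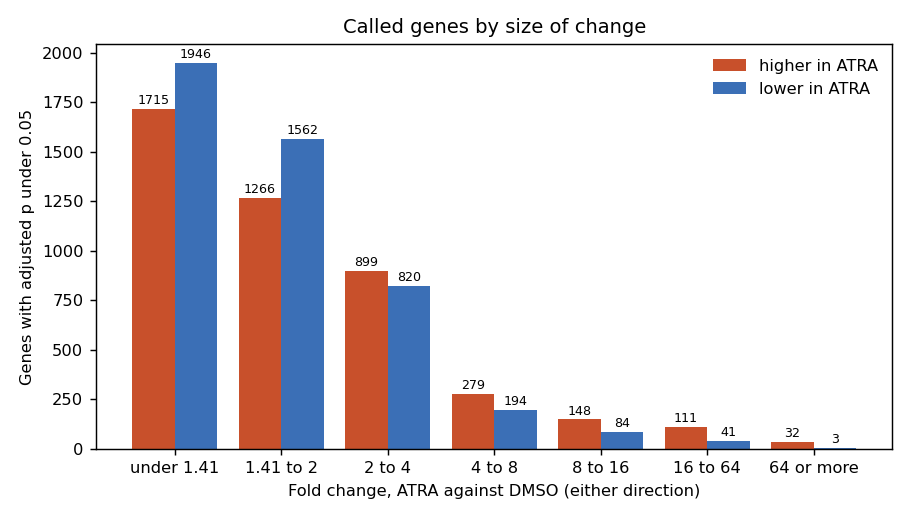
Number of genes with an adjusted p under 0.05 (vertical axis) by size of the fold change in either direction (horizontal axis), for genes higher (red) and lower (blue) in ATRA. Falls are the more numerous below 2-fold (1946 against 1715 in the smallest class) and rises in each class above it, up to 32 against 3 at 64-fold or more. With total counts in place of TMM the calls at 2-fold or more were 1268 higher and 1420 lower.

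Seen as shares of the libraries, the 1469 genes that were at least 2-fold higher held 5.73%, 5.86% and 6.14% of the counts of the control, shRNA1 and shRNA2 libraries in DMSO and 21.4%, 21.8% and 21.3% in ATRA. The 1142 genes that were at least 2-fold lower held 7.43%, 7.37% and 7.58% in DMSO and 2.33%, 2.26% and 2.33% in ATRA. These sets were chosen on the same counts, so the shares describe their size and are not tested. Genes were then grouped by function into 51 lists and by symbol into 10 families. The functional lists were chosen with earlier results of these data known, so their counts and ranks are descriptions and not tests. Of the 2611 genes with at least a 2-fold change, 703 belong to at least 1 of these 61 lists and families. Together these hold 3173 of the 13289 genes listed in either table. Each group below is described by how many of its tested members were called and by its median log2 fold change, beside the percentages over all genes given above and a median of -0.013 over all 12301 genes. Fold changes are given on the log2 scale with their standard error over 3 against 3 libraries, also after "rose by" and "fell by", and levels as the 3 libraries or their mean ± SD (n = 3). Among the genes said to have risen or fallen the largest adjusted p was 0.00598.

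**Figure D2:**
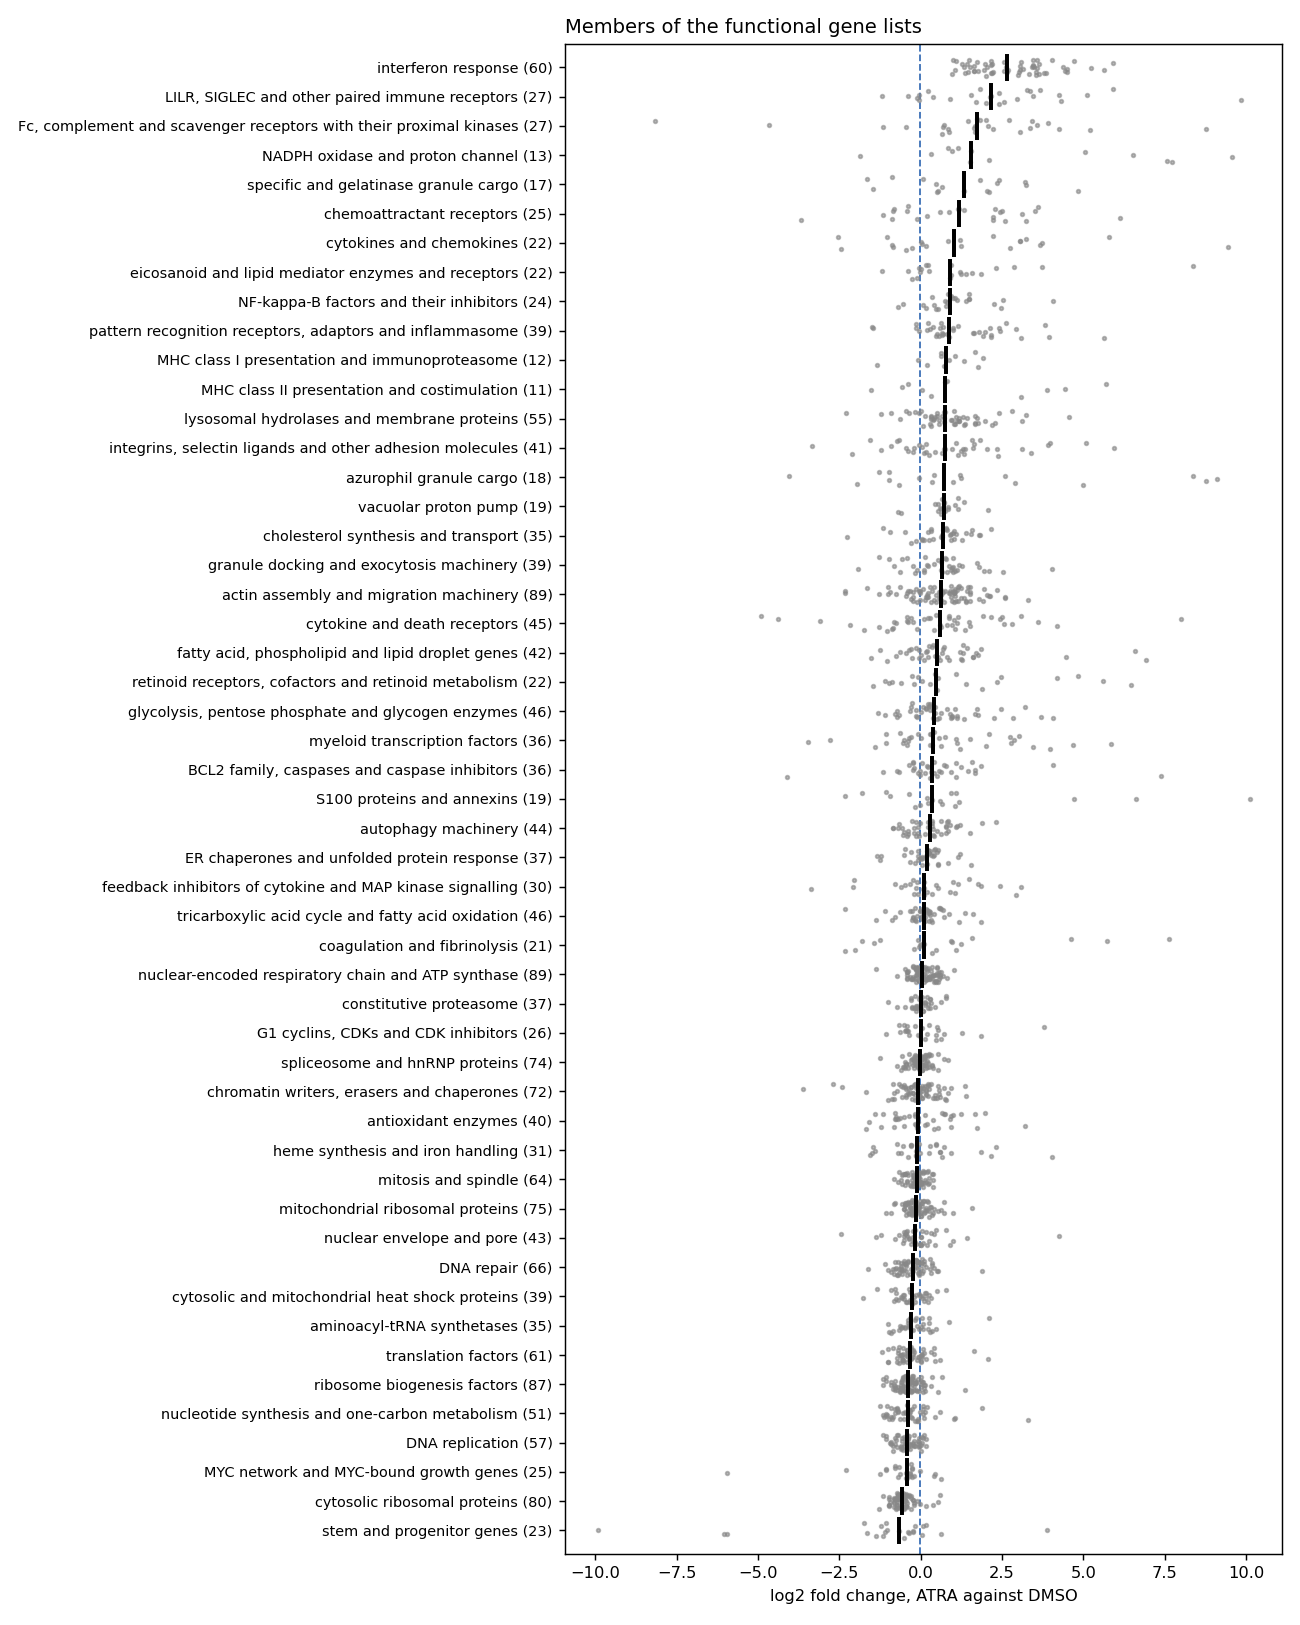
Log2 fold change, ATRA against DMSO (horizontal axis), of every tested member (grey points, shifted at random in height) of the 51 functional lists, ordered by their medians (black bars), with the number of tested members in brackets and the median of all genes as a dashed line. The interferon list has the highest median (2.66) with all 60 members to the right of the line, while ribosomal proteins, DNA replication and stem and progenitor genes lie mostly to its left.

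Sequence windows before the start sites of 5 genes are printed here because they carry the elements through which retinoid receptors and interferon-activated factors are known to bind. IFI27, RSAD2 and OAS3 were taken for their large fold changes among interferon list members with the element. Element and steep rise are thus paired by choice in them. The printed stretches come from RefSeq promoter windows on build GRCh38.p14 (250 bases before to 50 after the start), all on the plus strand, and capitals mark the matches. For retinoid receptors the search was for a pair of sites in the same direction with 5 bases between, on either strand, each site reading A or G, then G, then G or T, then TCA. RARB holds 1 match, 53 bases before the start (chr3:25428180-25428256), and CYP26A1 holds 1, 90 bases before it (chr10:93073773-93073849). For the interferon-stimulated response element the search was for GAAA, 2 further bases and GAAA, on either strand. IFI27 holds 2 matches, 108 and 95 bases before the start (chr14:94110598-94110680), RSAD2 1, 145 bases before it (chr2:6877602-6877671), and OAS3 2, 143 and 12 bases before it (chr12:112938301-112938473).
RARB: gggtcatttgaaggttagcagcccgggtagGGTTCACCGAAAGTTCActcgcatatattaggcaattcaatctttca
CYP26A1: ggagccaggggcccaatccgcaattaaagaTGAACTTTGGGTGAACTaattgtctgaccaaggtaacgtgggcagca
IFI27: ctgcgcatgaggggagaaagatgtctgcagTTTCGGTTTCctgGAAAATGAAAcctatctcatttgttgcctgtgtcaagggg
RSAD2: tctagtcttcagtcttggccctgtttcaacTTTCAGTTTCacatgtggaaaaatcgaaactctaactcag
OAS3: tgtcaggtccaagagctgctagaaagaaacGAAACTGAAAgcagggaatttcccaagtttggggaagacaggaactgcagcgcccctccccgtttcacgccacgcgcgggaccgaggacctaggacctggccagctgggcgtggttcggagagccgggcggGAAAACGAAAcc

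Genes of retinoid reception and metabolism included steep rises beside falls of the receptors RARA and RXRA. Of 22 tested members 13 were higher and 7 lower, against 36.2% and 37.8% of all genes, and 9 and 2 of them changed by at least 2-fold, with a median of 0.47. RARB, the retinoic acid receptor beta whose promoter element is printed above, stood in the order CTRL, shRNA1 and shRNA2 at 0.649, 0.547 and 0.570 CPM in DMSO and 26.7, 28.4 and 29.0 CPM in ATRA. Its 3 ATRA libraries all lay far above the DMSO libraries (5.59 ± 0.11, adjusted p = 3.55e-09). CYP26A1, which oxidises retinoic acid, was listed only in the ATRA table, at 234, 213 and 226 CPM, and its paralog CYP26B1 likewise at a mean of 44.1 ± 16.3 CPM. DHRS3, which reduces retinal to retinol, went from 2.32 ± 0.946 to 214 ± 10.7 CPM (6.47 ± 0.17), and DHRS9, another retinoid dehydrogenase, from 11.1 ± 2.13 to 202 ± 9.02 CPM (4.18 ± 0.11). The receptor RARA, the normal counterpart of the fusion and counted here together with any fusion reads that map to it, fell by 0.20 ± 0.045, and its partner RXRA by 0.98 ± 0.062. RDH10, which makes retinal from retinol, fell by 1.10 ± 0.13 and the retinal oxidase ALDH1A3 by 1.46 ± 0.18. NRIP1, a corepressor known as a retinoid target, was listed only in the ATRA table at a mean of 18.4 ± 4.93 CPM. The direct repeat with 5 bases between was present in the windows of 11 of the 10056 tested genes that have one (0.109%). It was present for 2 of the 22 retinoid genes with a window, and for 4 of the 1155 genes with a window that were at least 2-fold higher (0.346%). Here and below, list members in 1 table only were counted if they had a window, such as CYP26A1. The 22 are thus drawn from 27 list members and are not the 22 tested. Retinoid genes had a mean of 2.045 windows each, against 1.466 for all tested genes. With 2 bases between, the repeat was found for 6 of 10056 genes (0.0597%) and for no retinoid gene.

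Transcription factors of the myeloid line moved in both directions. Of 36 tested, 21 were higher and 9 lower (14 and 5 by at least 2-fold, median 0.37). CEBPE, which drives the late granulocyte program, stood at 41.5, 46.2 and 35.2 CPM in DMSO and 447, 451 and 450.3 CPM in ATRA. SPI1, which encodes PU.1, stood at 85.3, 92.9 and 103 CPM in DMSO and 406, 373 and 355 CPM in ATRA. In both genes every ATRA library was above every DMSO library (3.45 ± 0.094 and 2.01 ± 0.082). CEBPB rose by 2.79 ± 0.076, whereas CEBPA, needed at the entry to the granulocyte line, fell by 1.42 ± 0.067. ID2 and ID1, inhibitors of E proteins, rose by 5.84 ± 0.07 and 4.69 ± 0.41. The falls were led by GATA2, a factor of progenitors and mast cells (-3.48 ± 0.22), and KLF4 (-2.78 ± 0.23). MYB, which maintains progenitors, went from 519 ± 33.7 to 246 ± 33.1 CPM (-1.08 ± 0.057), and GFI1, a repressor needed for neutrophil formation, fell by 0.64 ± 0.063.

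NF-kappa-B factors and the inhibitors they induce rose together. Of 24 tested, 20 were higher and 2 lower, 10 higher and 0 lower by at least 2-fold, with a median of 0.88. The subunit genes NFKB1, NFKB2 and RELB rose by 1.05 ± 0.054, 0.92 ± 0.073 and 0.77 ± 0.11. The inhibitors NFKBIA and TNFAIP3 rose by 1.48 ± 0.12 and 1.11 ± 0.12, and the inducible regulators BIRC3 and NFKBIZ by 4.05 ± 0.24 and 2.52 ± 0.10. TRAF2 and NFKBIB were the 2 that fell, by 0.69 ± 0.059 and 0.53 ± 0.085. Feedback inhibitors of cytokine and MAP kinase signalling were split, with 14 of 30 higher, 7 lower and a median of 0.10 that turned to -0.027 with total counts. Among them SOCS3 rose by 2.42 ± 0.18 and the ERK phosphatases DUSP5 and DUSP6 by 2.93 ± 0.15 and 1.47 ± 0.072, while DUSP3 and DUSP10 fell by 3.39 ± 0.11 and 2.10 ± 0.12. PTPN22, a phosphatase that restrains immune receptor signalling, went from 42.2 ± 0.180 to 358 ± 36.3 CPM (3.08 ± 0.062).

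Every tested gene of the interferon response list was higher in ATRA. All 60 were called, 58 of them by at least 2-fold, and the median of 2.66 was the highest of the 51 lists. The list was chosen with earlier results of these data known, so these figures describe its members and not all interferon-regulated genes. ISG15, a ubiquitin-like modifier, stood at 31.4, 39.1 and 53.2 CPM in DMSO and 314, 353 and 358 CPM in ATRA. IFI6, a mitochondrial protein with antiviral action, stood at 145, 159 and 231 CPM in DMSO and 1601, 2034 and 2069.8 CPM in ATRA. In both, shRNA2 had the highest DMSO level, and all 3 ATRA libraries lay above it (3.07 ± 0.12 and 3.42 ± 0.13). MX1 and IFIT1, which act on viral nucleocapsids and on viral RNA, rose by 4.48 ± 0.14 and 3.63 ± 0.099, and OAS1, which makes the activator of RNase L, by 3.31 ± 0.17. IRF7, a transcription factor of the pathway, rose by 1.75 ± 0.094. GBP1, GBP4, RTP4 and ZBP1 were listed only in the ATRA table, at means of 28.3 ± 6.39, 4.79 ± 1.24, 1.46 ± 0.678 and 15.1 ± 1.63 CPM. As a share of counts the list went from 0.326%, 0.339% and 0.419% of the control, shRNA1 and shRNA2 libraries to 1.91%, 2.07% and 2.02%. The response element defined above was present in the windows of 35 of the 50 interferon genes with a window (70.0%), against 393 of 10056 tested genes (3.91%). Among genes at least 2-fold higher but outside the list it was present in 63 of 1108 (5.69%), and among genes at least 2-fold lower in 15 of 876 (1.71%). Outside the list, the RNA helicases DDX60 and DDX60L rose by 3.54 ± 0.12 and 3.55 ± 0.093 and TRIM22 by 3.57 ± 0.14. The ISG15 protease USP18 rose by 3.02 ± 0.096, the tryptophanyl-tRNA synthetase WARS by 2.09 ± 0.056 and the dNTP hydrolase SAMHD1 by 3.28 ± 0.10. These genes were named for being the largest rises of other groups and are no separate support. Interferon-regulated genes outside the list that fell or did not change were not searched for.

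Antigen presentation genes rose with fewer members to measure, since the HLA genes, TAP1, PSMB8 and PSMB9 are not analysed here. Of 12 tested class I genes 10 were higher, 1 lower and the median was 0.78. B2M, the light chain of class I molecules, stood at 1099, 1186 and 1201 CPM in DMSO and 2762, 2998 and 3020.0 CPM in ATRA (1.33 ± 0.042). The trimming peptidases ERAP1 and ERAP2 rose by 1.06 ± 0.044 and 1.91 ± 0.061 and the proteasome activator PSME2 by 1.75 ± 0.056. The 1 member that fell was CALR, a chaperone of class I assembly and of the endoplasmic reticulum in general (-1.34 ± 0.081). Of 11 class II and costimulatory genes 7 were higher and 2 lower. The lipid-presenting CD1D rose by 5.68 ± 0.16, the invariant chain CD74 by 4.42 ± 0.29 and the costimulator CD86 by 3.88 ± 0.13, while the ligand ICOSLG fell by 1.53 ± 0.12. CD40 was listed only in the ATRA table (mean 15.0 ± 0.940 CPM).

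Azurophil granule genes, which belong to the promyelocyte stage, did not move as a block. Of 18 tested, 10 were higher and 6 lower (9 and 3 by at least 2-fold, median 0.71), so rises were the more numerous. MPO, the myeloperoxidase of these granules, stood at 9866, 10044 and 9989 CPM in DMSO and 4298, 5251 and 5764 CPM in ATRA (-0.97 ± 0.075), and CTSG, a serine protease, at 74.5, 71.4 and 62.3 CPM in DMSO and 2.94, 3.86 and 5.41 CPM in ATRA (-4.06 ± 0.17). In both genes the control had the lowest ATRA level and shRNA2 the highest, and no ATRA library reached a DMSO library. AZU1 and PRSS57, serine protease homologs, fell by 0.97 ± 0.067 and 1.96 ± 0.095. The proteinase 3 gene PRTN3 was among the 10 that rose, from 55.7 ± 19.2 to 331 ± 90.9 CPM (2.58 ± 0.12). ELANE, which encodes neutrophil elastase, was listed only in the DMSO table, at 0.325, 0.0829 and 0.615 CPM. Some defensin genes share near-identical copies, so the size of their change is uncertain. The defensin gene DEFA4 was listed only in the ATRA table, at a mean of 178 ± 25.5 CPM.

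Most genes of later granule cargo rose. Of 17 tested specific and gelatinase granule genes, 13 were higher, 3 lower (9 and 2 by at least 2-fold) and the median was 1.33. A further 14 members were listed only in the ATRA table, of which CEACAM1 had the highest mean (127 ± 28.1 CPM), followed by OLFM4 (33.7 ± 4.49 CPM), MMP8 (26.9 ± 3.87 CPM) and CEACAM8 (10.9 ± 4.47 CPM). The defining specific granule genes were listed in the ATRA table alone at low levels, LTF (lactoferrin) at 2.48, 4.88 and 2.39 CPM and CAMP (cathelicidin) at 3.72, 7.33 and 5.97 CPM. CFP, the complement factor properdin, rose by 4.82 ± 0.092 and the acute phase protein ORM1 by 3.22 ± 0.36. The gelatinase gene MMP9 went from 172 ± 17.3 to 54.7 ± 4.01 CPM (-1.66 ± 0.084), and SLC11A1 (NRAMP1), a metal pump of phagosomes, fell by 1.45 ± 0.31 at low levels.

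Nearly all genes of the phagocyte oxidase rose. Of 13 tested members 12 were higher and 1 lower, 9 and 1 by at least 2-fold. CYBB, the catalytic subunit, stood at 78.6, 75.7 and 93.0 CPM in DMSO and 2622, 2853 and 2606 CPM in ATRA (5.03 ± 0.091). The other membrane subunit CYBA, the regulator NCF4 and the GTPase RAC2 rose by 1.54 ± 0.057, 0.96 ± 0.054 and 2.10 ± 0.048. NCF1, the organiser p47, shares reads with near-identical pseudogenes, and its rise from 3.58 ± 0.304 to 2754 ± 425 CPM is uncertain in size. The member that fell was HVCN1, the proton channel that balances the charge moved by the oxidase, from 138 ± 13.4 to 37.7 ± 1.71 CPM (-1.88 ± 0.066). PADI2, a citrullinating enzyme kept in this list, rose by 7.71 ± 0.1. Antioxidant enzymes were split, with 15 of 40 higher and 17 lower. CAT (catalase) and GSR (glutathione reductase) rose by 0.91 ± 0.067 and 0.98 ± 0.061 and GLRX by 1.98 ± 0.056, whereas GPX1, MGST3 and NQO1 fell by 0.75 ± 0.059, 1.68 ± 0.086 and 1.59 ± 0.17.

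Receptors that recognise opsonised particles rose in most cases. Of 27 tested Fc, complement and scavenger receptors with their kinases, 23 were higher and 4 lower (18 and 3 by at least 2-fold), with a median of 1.72. The IgG receptors FCGR1A and FCGR2A rose by 1.67 ± 0.09 and 2.08 ± 0.14; both belong to families with closely similar copies. The shared signalling chains FCER1G and TYROBP rose by 3.57 ± 0.15 and 3.37 ± 0.11, the IgA receptor FCAR by 5.19 ± 0.27, and complement receptor CR1 by 1.83 ± 0.10. Apart from the scavenger receptor STAB1, which went from 474 ± 31.3 to 1.65 ± 0.402 CPM, the largest fall was that of TYRO3, a receptor kinase for apoptotic cells (-4.65 ± 0.19).

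Paired receptors of the LILR and SIGLEC families had the second highest median of the 51 lists (2.15). Of 27 tested, 22 were higher and 1 lower, 19 and 1 by at least 2-fold. A further 9 were listed for ATRA alone and 1, LILRB4, for DMSO alone (mean 1.29 ± 1.21 CPM). Over all genes these sets held 537 and 451 genes. SIRPA, the inhibitory receptor for CD47, stood at 69.0, 67.9 and 77.2 CPM in DMSO and 637, 701 and 709.7 CPM in ATRA (3.26 ± 0.061). PILRA rose by 1.54 ± 0.063 and LILRA6 by 5.92 ± 0.15, the latter with a near-identical neighbour. LILRB2 and LILRA5 were listed only in the ATRA table, at means of 36.3 ± 4.28 and 61.0 ± 5.05 CPM. SIGLEC6 was the member that fell (-1.19 ± 0.20).

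Sensors of microbes rose as well. Of 39 tested pattern recognition genes 33 were higher and 4 lower, 18 and 2 by at least 2-fold, with a median of 0.86. TLR4, the lipopolysaccharide receptor, rose from 13.4 ± 1.36 to 40.7 ± 4.72 CPM (1.61 ± 0.079), and TLR2 by 0.36 ± 0.091. The inflammasome genes CASP1, NLRC4 and NLRP12 rose by 2.39 ± 0.072, 3.95 ± 0.068 and 5.62 ± 0.16. NOD2 and NLRP1 fell by 1.46 ± 0.28 and 1.51 ± 0.094. CD14 and CLEC7A (dectin-1) were listed only in the ATRA table, at 3.97, 3.92 and 5.31 CPM and 25.4, 21.4 and 27.1 CPM.

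Most receptors that guide migration rose. Of 25 tested chemoattractant receptors 16 were higher and 6 lower, 14 and 2 by at least 2-fold, with a median of 1.19. Another 7 were listed for ATRA alone. For DMSO alone there were 2, CXCR3 and GPR183, at means of 0.583 and 1.48 CPM. C5AR1, the receptor of complement C5a, stood at 3.63, 4.89 and 7.20 CPM in DMSO and 71.9, 53.4 and 57.0 CPM in ATRA (3.50 ± 0.21). PTAFR, LTB4R and CCR1, for platelet-activating factor, leukotriene B4 and chemokines, rose by 2.28 ± 0.086, 1.34 ± 0.071 and 3.12 ± 0.074. CXCR2, FPR2 and FPR1, the neutrophil receptors for interleukin 8 and formyl peptides, were listed only in the ATRA table at means of 26.0 ± 1.63, 22.5 ± 1.93 and 3.55 ± 0.441 CPM. CXCR4, which retains neutrophils in the marrow, rose by 0.87 ± 0.10. The sphingosine phosphate receptor S1PR3 fell by 3.69 ± 0.14 and CCR2 by 1.16 ± 0.27.

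Growth factor and cytokine receptors moved in both directions. CSF3R, the receptor of granulocyte colony-stimulating factor, stood at 140.2, 138 and 128 CPM in DMSO and 653, 638 and 523 CPM in ATRA (2.16 ± 0.078). CSF2RB and TNFRSF1B rose by 4.18 ± 0.11 and 2.81 ± 0.098, and IL6R by 0.96 ± 0.055. CSF1R, the receptor of the monocyte growth factor, fell by 0.81 ± 0.056 and FLT3, a receptor of progenitors, by 1.75 ± 0.26. The death receptor TNFRSF25 and the costimulator TNFRSF4 fell by 4.92 ± 0.17 and 4.38 ± 0.22. Of the 45 tested members 26 were higher and 14 lower, 17 and 6 by at least 2-fold.

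Adhesion molecules of leukocytes rose strongly beside falls of others. Of 41 tested, 25 were higher and 10 lower, 19 and 4 by at least 2-fold. ITGAM (CD11b), a classical marker of granulocyte maturation, stood at 25.3, 28.7 and 38.3 CPM in DMSO and 455, 477 and 462 CPM in ATRA (3.92 ± 0.12), and its partner ITGB2 went from 149.6 ± 15.2 to 1291 ± 24.8 CPM (3.11 ± 0.065). ITGAX and ITGAL rose by 3.96 ± 0.10 and 1.64 ± 0.08, and the selectin ligand SELPLG by 1.34 ± 0.16. ICAM1, a ligand of these integrins, stood at 15.3, 17.5 and 26.8 CPM in DMSO and 1326, 1173 and 1154 CPM in ATRA (5.94 ± 0.20). ITGA4 went from 669.9 ± 14.8 to 744 ± 128 CPM (0.15 ± 0.093, adjusted p = 0.189) with overlapping groups. The tetraspanin CD9 and the laminin receptor subunit ITGA7 fell by 3.34 ± 0.18 and 2.11 ± 0.22.

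By number of genes, the rise of the actin machinery was broad and moderate. Of 89 tested members 64 were higher and 16 lower, 33 and 5 by at least 2-fold, with a median of 0.63. Its share of counts went from 2.43%, 2.54% and 2.68% in DMSO to 3.88%, 3.90% and 3.88% in ATRA for the control, shRNA1 and shRNA2. The gain in share also rests on single abundant genes, with mean gains of 3438.5 CPM for ACTB and 2902.1 CPM for MYO1F. ACTB, which encodes beta actin, stood at 3153, 3383 and 3464 CPM in DMSO and 6804, 6892 and 6618 CPM in ATRA (1.02 ± 0.049). ACTG1, which encodes the other cytoplasmic actin, moved the opposite way, from 2398 ± 228 to 1237 ± 93.7 CPM (-0.95 ± 0.082), although reads of these near-identical coding sequences can be shared. MYO1F, a myosin of neutrophils, went from 585 ± 67.6 to 3487 ± 71.6 CPM (2.58 ± 0.065) and CORO1A, a regulator of the Arp2/3 complex, from 518 ± 23.4 to 1490.4 ± 66.3 CPM (1.52 ± 0.044). VASP, which extends filaments, rose by 2.02 ± 0.062, the GTPase RHOB by 2.58 ± 0.10, the monomer-binding TMSB4X by 0.68 ± 0.064 and the WAVE complex subunit CYFIP2 by 3.29 ± 0.14. FSCN1 (fascin), which bundles filaments, and WASF1, the neuronal WAVE gene, fell by 2.34 ± 0.072 and 2.32 ± 0.12.

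Exocytosis genes followed with a median of 0.64 (25 of 39 higher, 9 lower, 10 and 2 by at least 2-fold). RAB27A, STXBP2 and UNC13D, which dock and prime secretory granules and whose loss causes defects of cytotoxic secretion, rose by 1.00 ± 0.042, 1.04 ± 0.058 and 0.87 ± 0.047. VAMP8 and SNAP23 rose by 0.75 ± 0.049 and 0.63 ± 0.043 and STX11 by 4.02 ± 0.13, while RAB27B and STX2 fell by 1.30 ± 0.12 and 1.92 ± 0.071. In the S100 and annexin list 11 of 19 were higher and 5 lower. ANXA3 and ANXA1 rose by 6.61 ± 0.16 and 1.18 ± 0.085 and S100P by 1.05 ± 0.12. ANXA2 and S100A10, which form the plasminogen-binding complex known from promyelocytic leukemia, fell by 1.82 ± 0.16 and 2.32 ± 0.14. S100A8 was listed only in the ATRA table, at 108, 131 and 89.1 CPM.

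Coagulation genes, which matter in promyelocytic leukemia because of its bleeding disorder, showed large single changes around a median of 0.10 that turned to -0.028 with total counts. The list medians of the constructs differed, at 0.72 in the control and 0.06 in both hairpins. F3 (tissue factor), the trigger of clotting, stood at 23.8, 24.8 and 27.4 CPM in DMSO and 10.3, 9.23 and 8.92 CPM in ATRA (-1.42 ± 0.093). THBD (thrombomodulin), an anticoagulant receptor, stood at 9.77, 9.16 and 11.2 CPM in DMSO and 255, 247 and 235 CPM in ATRA (4.61 ± 0.081). Thus the procoagulant gene was lower and the anticoagulant gene higher in every ATRA library than in any DMSO library. The urokinase gene PLAU and its receptor PLAUR rose by 0.93 ± 0.10 and 0.94 ± 0.18, and SERPINE2 fell by 2.01 ± 0.24. SERPINB2, an inhibitor of urokinase, was listed only in the ATRA table at 174, 168 and 107 CPM. In all, 9 of 21 tested genes were higher and 5 lower.

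Genes of secreted and lipid mediators were more often higher than lower. Of 22 tested cytokine and chemokine genes 12 were higher and 6 lower, 11 and 3 by at least 2-fold. TGFB1 rose by 1.23 ± 0.064 and the B cell factor TNFSF13B by 3.06 ± 0.088. The chemokine CCL5 fell by 0.89 ± 0.17, the interleukin 1 antagonist IL1RN by 2.46 ± 0.19 and TNFSF14 by 2.53 ± 0.22. CXCL10 and CCL24 were listed only in the ATRA table at means of 32.1 ± 1.79 and 28.1 ± 5.27 CPM. Of 22 tested eicosanoid genes 14 were higher and 4 lower. ALOX5AP, which presents arachidonic acid to 5-lipoxygenase, stood at 1.82, 2.04 and 2.46 CPM in DMSO and 754, 715 and 644 CPM in ATRA (8.36 ± 0.11). ALOX5 itself rose by 2.31 ± 0.18, LTA4H, which makes leukotriene B4, by 0.92 ± 0.094 and cyclooxygenase 1 (PTGS1) by 3.72 ± 0.12, while LTC4S, which makes leukotriene C4, fell by 1.18 ± 0.23. CYP4F3, the leukotriene B4 hydroxylase of neutrophils, was listed only in the ATRA table at 93.9, 107 and 73.0 CPM.

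Lysosomal genes and the pump that acidifies lysosomes rose together. Of 55 tested hydrolases and membrane proteins 44 were higher and 7 lower, 25 and 2 by at least 2-fold, with a median of 0.75. CTSD (cathepsin D) stood at 99.8, 104 and 82.4 CPM in DMSO and 2167, 2349.7 and 2243 CPM in ATRA (4.56 ± 0.097). PSAP, the precursor of saposins, went from 440.3 ± 15.7 to 999.5 ± 29.4 CPM, CTSS rose by 1.97 ± 0.081, HEXA by 1.18 ± 0.043 and NPC2, which moves cholesterol out of lysosomes, by 1.68 ± 0.075. CTSF (cathepsin F) fell by 2.29 ± 0.18. Of 19 proton pump subunits 17 were higher and 2 lower, with a median of 0.70 and few changes past 2-fold (5 higher). TCIRG1 and ATP6V0D1 rose by 2.08 ± 0.076 and 1.33 ± 0.067, while the alternative subunit ATP6V0A2 fell by 0.61 ± 0.06. The hexanucleotide CACGTG, to which factors of the TFE and MYC families bind, was present in the windows of 13 of 39 lysosomal genes (33.3%) and of 28 of 73 ribosome biogenesis genes (38.4%), against 12.7% of all tested genes with a window.

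Degradation by other routes changed less. Of 44 autophagy genes 24 were higher and 13 lower, 6 and 0 by at least 2-fold, with a median of 0.28. SQSTM1 (p62), the cargo receptor, went from 89.9 ± 7.02 to 333 ± 71.9 CPM (1.87 ± 0.10), and TFEB, the regulator of lysosomal genes, rose by 2.32 ± 0.087. The kinases ULK1 and ULK2 fell by 0.51 ± 0.07 and 0.86 ± 0.16. The constitutive proteasome was near the background in both directions (14 of 37 higher, 12 lower, median 0.02, or -0.11 with total counts). Its assembly factors PSMG1 and PSMG3 fell by 0.74 ± 0.061 and 1.01 ± 0.061, and its largest rise, PSMC2, was 0.76 ± 0.042.

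Genes of glucose metabolism were more often higher than lower, with 28 of 46 tested members higher and 9 lower, 13 and 2 by at least 2-fold, and a median of 0.41. PGD, an NADPH-making enzyme of the pentose phosphate pathway, stood at 147, 139 and 149 CPM in DMSO and 1411, 1360.4 and 1277 CPM in ATRA (3.22 ± 0.055). TKT (transketolase), which links the pathway to glycolysis, stood at 381, 422 and 372 CPM in DMSO and 1969, 2219.8 and 2276 CPM in ATRA (2.46 ± 0.063). For both genes every ATRA library was above every DMSO library. PKM, which encodes the last enzyme of glycolysis, rose from 268 ± 26.1 to 1281 ± 137 CPM (2.26 ± 0.098), PYGL, which opens glycogen, by 0.89 ± 0.077 and the fructose transporter SLC2A5 by 4.07 ± 0.091. The hexokinase of neutrophils, HK3, was listed only in the ATRA table at 185, 211 and 191 CPM. LDHA went from 642 ± 81.9 to 532 ± 79.8 CPM (-0.28 ± 0.12, adjusted p = 0.0639), with overlapping groups, and passed the test as lower with total counts (-0.41) and without either control library (-0.45 in both). The lactate transporter SLC16A1 and the kinase PDK1 fell by 1.32 ± 0.064 and 0.80 ± 0.10. ENO2, an enolase, stood in the order CTRL, shRNA1 and shRNA2 at 26.0, 40.6 and 40.0 CPM in DMSO and 35.5, 11.7 and 10.3 CPM in ATRA, so that it was higher in ATRA in the control and lower in both hairpins.

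Genes of the respiratory chain, the citric acid cycle and fatty acid oxidation showed little net movement. Of 89 nuclear-encoded respiratory chain genes 38 were higher and 20 lower, only 1 in each direction by at least 2-fold, and the median was 0.026, or -0.10 with total counts. COX4I1 stood at 232, 241 and 234 CPM in DMSO and 244, 241 and 224 CPM in ATRA, so that the groups overlapped (0.0036 ± 0.049, adjusted p = 0.952), but with total counts it passed the test as lower (-0.126, adjusted p = 0.0336). NDUFAF2, an assembly factor of complex I, fell by 1.39 ± 0.086 and NDUFB1 rose by 1.01 ± 0.079. In the citric acid cycle and fatty acid oxidation list 21 of 46 were higher and 15 lower (median 0.10, or -0.027 with total counts). The cytosolic isocitrate dehydrogenase IDH1, which also makes NADPH, rose by 1.36 ± 0.043, the mitochondrial IDH2 fell by 0.64 ± 0.081, and CPT1A and PC, which control entry of fatty acids and of pyruvate, fell by 1.36 ± 0.069 and 2.33 ± 0.069.

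Lipid and iron genes held several large rises. Of 35 cholesterol genes 25 were higher and 5 lower, 11 and 2 by at least 2-fold, with a median of 0.69. SQLE, a controlling enzyme of synthesis, rose by 1.03 ± 0.053, the feedback gene INSIG1 by 1.53 ± 0.082 and the exporter ABCA1 by 0.94 ± 0.054. SREBF1 rose by 1.82 ± 0.068, while NR1H3 (the sterol receptor LXR alpha) and OSBPL5 fell by 1.17 ± 0.095 and 2.28 ± 0.051. SCD, which desaturates fatty acids, stood at 286, 333 and 326 CPM in DMSO and 641, 741 and 777 CPM in ATRA (1.19 ± 0.044). The lipid droplet genes G0S2, PLIN5 and PLIN2 rose by 6.58 ± 0.15, 6.93 ± 0.13 and 1.61 ± 0.19, and HILPDA fell by 1.53 ± 0.18. ALAS1, the first enzyme of heme synthesis, went from 65.5 ± 4.87 to 1077 ± 74.4 CPM (4.04 ± 0.08) within a list that was evenly split (13 of 31 higher and 13 lower). FTL, a ferritin chain, rose by 2.33 ± 0.053 and the iron exporter SLC40A1 by 1.84 ± 0.11.

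**Figure D3:**
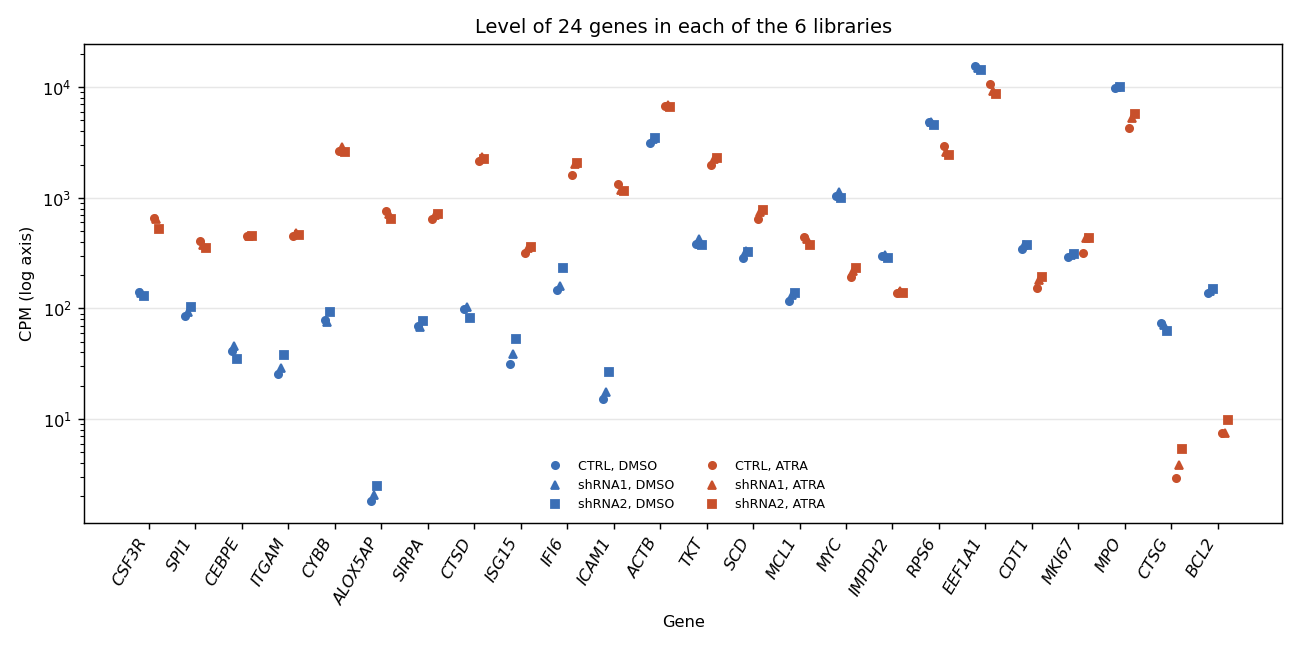
Level in CPM (vertical axis, log scale) of 24 genes (horizontal axis) in each library, with DMSO in blue, ATRA in red and the construct as the symbol. For each gene the 3 ATRA points lie on one side of the 3 DMSO points, with the narrowest gap for MKI67 (311 CPM in shRNA2 in DMSO, 318 CPM in the control in ATRA).

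Growth genes fell, MYC by more than 2-fold and most of its targets by less. MYC stood at 1033, 1134 and 998 CPM in DMSO and 192, 216 and 233 CPM in ATRA (-2.31 ± 0.069), with no ATRA library near a DMSO library. Of 25 genes of the MYC network and its growth targets 20 were lower and 3 higher, 5 lower by at least 2-fold. NPM1 (nucleophosmin) went from 1547 ± 56.7 to 739 ± 22.4 CPM (-1.07 ± 0.05) and MAX, the partner of MYC, fell by 0.68 ± 0.051, whereas the antagonist MXD1 rose by 0.42 ± 0.057. In the ribosome biogenesis list 67 of 87 were lower and 6 higher, but only 4 fell by at least 2-fold, and the median was -0.40. FBL (fibrillarin), NOP56 and DKC1, which modify ribosomal RNA, fell by 1.06 ± 0.082, 0.80 ± 0.049 and 0.58 ± 0.043, and the RNA polymerase I subunits POLR1B and POLR1E by 0.93 ± 0.046 and 1.16 ± 0.079. RRP12 was the exception past 2-fold (1.35 ± 0.076).

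Cytosolic ribosomal proteins fell almost as a whole. Of 80 tested, 74 were lower and 3 higher (2 lower by at least 2-fold), with a median of -0.58. RPS6 stood at 4842, 4803 and 4521 CPM in DMSO and 2968, 2613 and 2428 CPM in ATRA (-0.83 ± 0.059), and RPL3 and RPLP0 fell by 0.96 ± 0.051 and 0.62 ± 0.049. The list held 8.40%, 8.39% and 7.92% of the counts of the control, shRNA1 and shRNA2 libraries in DMSO and 5.08%, 4.78% and 4.52% in ATRA. Reads of these genes can be shared with many pseudogenes. Translation factors moved with them, with 42 of 61 lower, 8 higher and a median of -0.33. EEF1A1, the elongation factor that delivers aminoacyl-tRNA, stood at 15618, 15043 and 14255 CPM in DMSO and 10649, 9275 and 8669 CPM in ATRA (-0.66 ± 0.056). EEF2 and EIF4B fell by 0.99 ± 0.052 and 1.02 ± 0.051. EIF2AK2 (PKR), an interferon-induced kinase, rose by 1.64 ± 0.07 and EIF1B by 2.06 ± 0.054. Of 75 mitochondrial ribosomal proteins 37 were lower (49.3%, against 37.8% of all genes) and 16 higher, with a median of -0.14.

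Supplies for growth were lower too. Of 51 genes of nucleotide and one-carbon metabolism 35 were lower and 7 higher, with a median of -0.41. IMPDH2, which commits purines to guanine nucleotides, stood at 298, 303 and 285 CPM in DMSO and 138, 144 and 139 CPM in ATRA (-1.07 ± 0.046). CAD, PAICS and PHGDH, for pyrimidines, purines and serine, fell by 1.08 ± 0.078, 0.91 ± 0.047 and 0.65 ± 0.047, and SRM, which makes spermidine, by 1.26 ± 0.068, while SAT1, which breaks polyamines down, rose by 1.88 ± 0.10. Of 35 aminoacyl-tRNA synthetases 21 were lower and 8 higher. Of 39 heat shock proteins 26 were lower and 7 higher, among them HSPA8 (-0.60 ± 0.045), HSP90AB1 (-0.69 ± 0.042) and FKBP4 (-1.34 ± 0.055). Chaperones of the endoplasmic reticulum did not share this fall (21 of 37 higher, 7 lower). There HSPA5 (BiP) went from 241 ± 8.52 to 702 ± 39.1 CPM (1.54 ± 0.051) and DDIT3 (CHOP) rose by 1.15 ± 0.11, while XBP1 fell by 1.27 ± 0.043. The spliceosome list stayed near the background, with 20 of 74 higher, 27 lower and a median of -0.024.

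**Figure D4:**
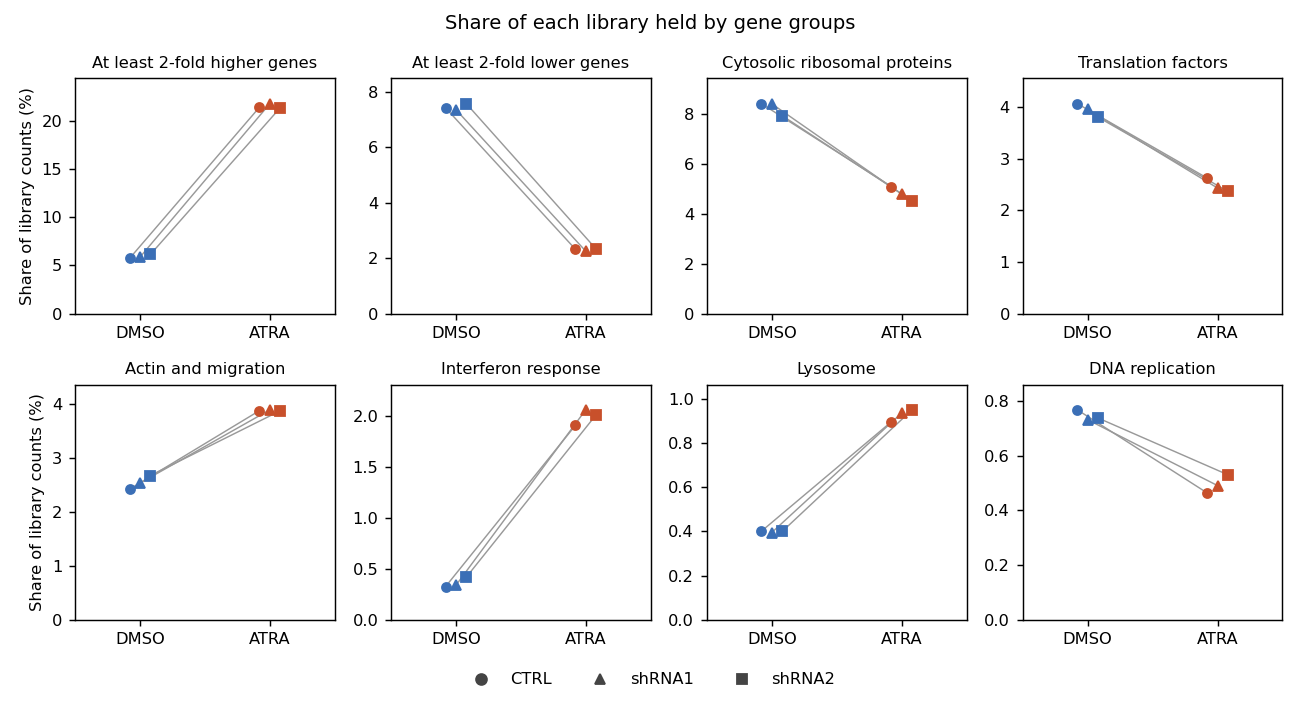
Share of library counts in percent (vertical axes, from 0) held by 8 gene groups in DMSO (blue) and ATRA (red), with 1 symbol per construct and lines joining the 2 libraries of a construct. Genes at least 2-fold higher go from about 6% to over 21% and ribosomal proteins from about 8% to about 5% in all 3 constructs.

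Most DNA replication genes fell, by small steps, and fewer of the mitotic genes were called. Of 57 replication genes 43 were lower and 2 higher, 3 lower by at least 2-fold, with a median of -0.41. CDT1, which loads the replicative helicase, stood at 152, 180.3 and 192 CPM in the ATRA libraries, all below the lowest DMSO library at 345 CPM (-1.06 ± 0.052). POLD2 and CDC7 fell by 1.15 ± 0.055 and 1.08 ± 0.061, and E2F1 by 0.94 ± 0.06. PCNA, the polymerase clamp, went from 262 ± 4.37 to 254 ± 20.5 CPM (-0.049 ± 0.058, adjusted p = 0.462). Of 64 mitotic genes 31 were lower and 9 higher, none by 2-fold, with a median of -0.12. CCNB1 and CDK1, the mitotic cyclin and its kinase, had log2 fold changes of 0.093 ± 0.054 and -0.047 ± 0.05 (adjusted p = 0.148 and 0.416), with overlapping groups. With total counts PCNA and CDK1 passed the test as lower, at -0.18 each, and CCNB1 changed sign, to -0.037. CDC25A and MYBL2 fell by 0.81 ± 0.083 and 0.71 ± 0.08. MKI67, the proliferation antigen, rose by 0.37 ± 0.072, at 291, 303 and 311 CPM in DMSO and 318, 433 and 429 CPM in ATRA, so that the control was the lowest of the ATRA libraries.

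Regulators of the cell cycle brake, of death and of the nucleus changed gene by gene. Of 26 G1 cyclins, kinases and inhibitors 11 were higher and 10 lower. CDKN2D (p19), an inhibitor of CDK4 and CDK6, rose by 1.86 ± 0.10, CCND3 by 0.63 ± 0.048 and the antiproliferative BTG2 by 3.79 ± 0.19, while CCNE1 and CDKN1B (p27) fell by 1.08 ± 0.18 and 0.67 ± 0.047. DNA repair genes were lower in 38 of 66 and higher in 9, with NBN, a sensor of double-strand breaks, at 1.87 ± 0.065. BCL2, the survival gene of progenitors, stood at 137, 144 and 150.4 CPM in DMSO and 7.44, 7.55 and 9.74 CPM in ATRA (-4.13 ± 0.089). MCL1, on which neutrophils depend, stood at 116, 132 and 139 CPM in DMSO and 443, 420.0 and 377 CPM in ATRA (1.68 ± 0.083), and CASP8 rose by 1.22 ± 0.051. For both survival genes the treatments were fully separated, in opposite directions. Of the nuclear envelope genes LBR, without which neutrophil nuclei are known to stay unlobed, went from 269 ± 5.56 to 717 ± 50.8 CPM (1.41 ± 0.059), and LMNA and LMNB1, the lamins, fell by 1.38 ± 0.12 and 0.78 ± 0.053. Among chromatin genes DNMT3B fell by 2.70 ± 0.086, DNMT3L fell by 3.62 ± 0.27, and TET2 and the histone demethylase KDM6B rose by 1.35 ± 0.05 and 1.40 ± 0.096, in a list with 23 of 72 higher and 33 lower.

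Genes of stem and progenitor cells had the lowest median of the 51 lists (-0.66). Of 23 tested, 14 were lower and 2 higher, 10 and 1 by at least 2-fold. ZBTB16 (PLZF), the partner of RARA in a variant of the disease, stood at 16.3, 13.9 and 16.1 CPM in DMSO and 0.319, 0.103 and 0.304 CPM in ATRA (-6.06 ± 0.24), and SOX4 fell by 1.17 ± 0.065. CD38, known as a retinoid-induced surface enzyme and counted in this list as a progenitor marker, was the member that rose by at least 2-fold, from 20.2 ± 2.82 to 296 ± 17.6 CPM (3.87 ± 0.10). LIN28B rose by 0.63 ± 0.065.

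Families taken by symbol alone, without regard to function, ranged from below to above the shares of all genes. Of 435 ZNF genes 116 were higher and 144 lower, 14 and 15 by at least 2-fold (3.22% and 3.45%, against 11.9% and 9.28% of all genes). Of 236 solute carriers 80 were higher and 92 lower, 35 and 32 by at least 2-fold, and a median of -0.0088, which was 0.0044 with DESeq2 size factors. RAB GTPases were more often higher (31 of 54) than lower (11), with RAB31 at 2.54 ± 0.14. Of 27 tyrosine phosphatases named PTPN or PTPR 12 were higher and 8 lower, 8 and 4 by at least 2-fold (29.6% and 14.8%). Of 43 TRIM ubiquitin ligases 18 were higher and 12 lower, 12 and 5 by at least 2-fold (27.9% and 11.6%). Of 31 receptors named GPR 8 were higher and 12 lower, 5 and 8 by at least 2-fold (16.1% and 25.8%). Mitochondrial import genes were lower in 14 of 23 and higher in 6, and deubiquitinases named USP were lower in 23 of 47 and higher in 14.

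Called genes in both tables were also ranked by absolute change in CPM rather than by fold. The 12 largest gains included those of PRAM1, ACTB, MYO1F, NCF1, CYBB, APLP2, CTSD, OAS3, B2M, TKT and IFI6. PRAM1, an adaptor of myeloid cells named for its link to PML-RARA, stood at 93.1, 92.2 and 126 CPM in DMSO and 4305, 4196 and 3794 CPM in ATRA (5.31 ± 0.14). The 12 largest losses included MPO and the translation genes EEF1A1, EEF2, EEF1G, RPS6, RPL18, RPL3, RPL5 and RPL4. Also among them were the translationally controlled TPT1, ACTG1 and GOLGA6L10, a golgin gene with close copies whose level is uncertain. EEF1A1 alone fell by 5441 CPM, and MPO fell by 4861 CPM. CPM gains favour long and abundant transcripts and are given as a description.

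Genes listed in 1 table only have no fold change here, since a gene missing from a table has no value there and cannot be read as 0. The 537 genes of the ATRA table alone had a median of 0.752 CPM, and 60 of them reached 10 CPM. The 451 genes of the DMSO table alone had a median of 0.599 CPM, and 8 reached 10 CPM. The most abundant gene of each set, named after its value was seen, was TGM2 (tissue transglutaminase), at 3455, 3850 and 3066 CPM in the ATRA libraries of the control, shRNA1 and shRNA2, and CHAT (choline acetyltransferase), at 56.2, 52.9 and 49.8 CPM in those of DMSO. The genes of the ATRA table alone held between 0.608% and 0.696% of the counts of an ATRA library.

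Of the 51 lists, 47 had medians of the same sign in all 3 constructs. The median of the interferon list was 2.79 in the control, 2.84 in shRNA1 and 2.51 in shRNA2, and that of cytosolic ribosomal proteins -0.50, -0.60 and -0.63. That of the actin list was 0.75, 0.65 and 0.54, and that of DNA replication -0.53, -0.44 and -0.29. The order of the constructs was thus the same in the last pair of lists, with the control farthest from 0, but each is a single library pair per construct and no difference between the constructs was tested at the level of lists. Gene by gene, the interaction of treatment with knockdown state was called for 6 genes of 12301, ENO2, GBE1, PFKFB4, BNIP3, ADM and SPP1.

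**Figure D5:**
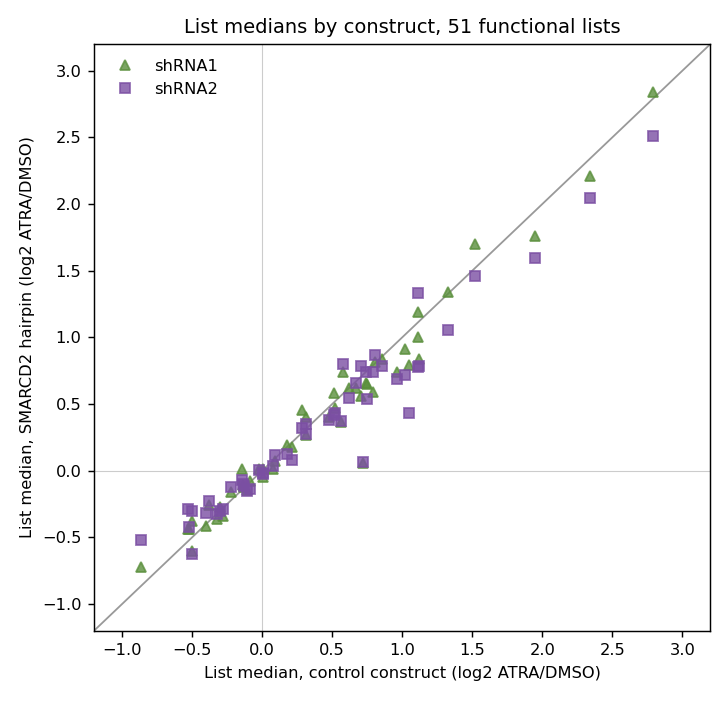
Median log2 ratio of ATRA to DMSO in each of the 51 functional lists, in the control construct (horizontal axis) and in the 2 SMARCD2 hairpins (vertical axis; triangles shRNA1, squares shRNA2), with the line of equality. Points lie along the line from the stem and progenitor list (-0.87 in the control) to the interferon list (2.79), with coagulation (0.72 in the control, 0.06 in both hairpins) farthest below it.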

How the data were processed

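The submitters' processing notes name bcl2fastq, STAR, Picard 2.5.0, DESeq2 and build GRCh37.p13, with no order; the gene annotation and the use of strand are not given in the sources used here, so overlapping and antisense genes cannot be told apart. Tables, one per treatment, hold read counts per gene that the authors deposited, in 2 count columns per library, per the file headers. These were taken as runs and summed. The 12 deposited normalized columns were not used. Genes in both tables (12301) were fitted with edgeR 4.0.16 (R 4.3.3): TMM scaling, full table totals as library sizes, a filter on low counts that removed no gene, knockdown state and treatment as terms, quasi-likelihood test, 3 residual degrees of freedom, Benjamini-Hochberg adjustment over all genes and a threshold of 0.05. CPM and log2 fold changes were computed here from the counts; standard errors are the fold change divided by the root of F. The step was also run on simulated counts with far fewer changed genes than were called here, which does not test the scaling of these data. Alternatives used limma 3.58.1, DESeq2 1.42.0, other scalings, single runs, a construct block and leaving out each library.

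Members and gene lists were chosen with earlier results of these data known. Named genes are set anchors of each list, its 2 largest rises and 2 largest falls among called genes of 1 direction in all constructs, list members in 1 table, the 12 largest gains and 12 largest losses in CPM, and SMARCD2; some were left out for length and some are not reported here. Symbols were matched as deposited, 2 of them by an older name. Promoter windows are from RefSeq (GRCh38.p14), matched by symbol for 10056 genes. The HLA genes, TAP1, PSMB8 and PSMB9 are not analysed here. Figures were drawn with matplotlib 3.10.9.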

Additional observations from a re-analysis of the deposited data

Results flagged for a closer look

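The response to ATRA differed between knockdown and control cells for 6 genes by the interaction of treatment and knockdown state in edgeR's quasi-likelihood test, with adjustment over all 12301 genes. The test has 2 residual degrees of freedom, and the lone control library of each treatment was assumed to vary like the knockdown libraries. In all 6 the knockdown response was the lower one. In all 6 the control library was also below both hairpin libraries in DMSO and above both in ATRA. The interactions thus hold differences in the untreated level as well as in the treated level. Values are in the order CTRL, shRNA1 and shRNA2, and these genes were named after the test was seen.

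ENO2, a glycolytic enolase, stood at 26.0, 40.6 and 40.0 CPM in DMSO and 35.5, 11.7 and 10.3 CPM in ATRA, with an interaction of -2.32 ± 0.15 (adjusted p = 0.0053) on the log2 scale. PFKFB4, which controls the rate of glycolysis through fructose bisphosphate, stood at 32.4, 54.2 and 55.4 CPM in DMSO and 117, 83.5 and 77.7 CPM in ATRA, with an interaction of -1.30 ± 0.11 (adjusted p = 0.0184). GBE1, which branches glycogen, had log2 ratios of ATRA to DMSO of -0.10, -1.02 and -1.03, with an interaction of -0.92 ± 0.10 (adjusted p = 0.0447). BNIP3, a mitochondrial receptor of autophagy, had log2 ratios of 0.16, -0.84 and -1.03, with an interaction of -1.10 ± 0.12 (adjusted p = 0.0447). ADM, which encodes the peptide adrenomedullin, had log2 ratios of 1.69, 0.23 and 0.14, with an interaction of -1.50 ± 0.14 (adjusted p = 0.0365). SPP1 (osteopontin) rose in all 3 constructs, with log2 ratios of 6.51, 5.01 and 4.88 and an interaction of -1.56 ± 0.16 (adjusted p = 0.0439). The hairpins are the replicates of this test, so their likeness in these genes is part of how the genes were chosen. With 1 control library per treatment, knockdown and any other difference between those cultures cannot be told apart.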

How the results depend on the processing

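The counts of called genes stayed within 1.5 times their value under every alternative run. Leaving out each library in turn gave 4093 to 4308 genes higher and 4221 to 4432 lower, and 1465 to 1505 and 1133 to 1166 at 2-fold or more. With total counts 3637 were higher and 5722 lower, and at 2-fold or more the balance turned (1268 and 1420). Testing against 2-fold itself (glmTreat) left 1137 higher and 778 lower. With construct as a replicate block there were 4463 higher and 4669 lower, 1471 and 1147 by at least 2-fold. Deviations of same-construct libraries correlated at 0.078 (control), 0.18 (shRNA1) and 0.21 (shRNA2), each library best with its own construct, which is a hint from the data and not the design. Under this replicate block LDHA (-0.28) and SMARCD2 (0.51) passed the test.

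None of the 268 named genes that were called lost its call or direction under an alternative that gave a value. Many of the 268 were named for being the largest called changes of a list, so this says little about the other called genes. Among the 7 named as not called, signs changed for CCNB1 (-0.037 with total counts), COX4I1 (-0.126 with total counts, where it passed the test, -0.0028 in run 1 alone, and -0.032 to 0.045 leaving out 1 library), PCNA (-0.099 to 0.026 leaving out 1 library) and CDK1 (-0.0832 to 0.0059 leaving out 1 library). SMARCD2 passed the test with DESeq2 size factors (0.54), in either run alone (0.56 and 0.47) and without shRNA1 in DMSO (0.69) or shRNA2 in ATRA (0.71). The cause was not tested. List medians moved by -0.13 with total counts in all 61 lists, in 8 of them across 0.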
